A study of Rattus norvegicus with 14 samples.

Results

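Isolated low-methylation windows are stretches of 1000 bp that carry little CpG methylation and have no other measured window nearby. They were taken from a table of percent methylation in soleus muscle of aged rats, on the rn7 build. A window was included when it lay on chromosomes 1 to 20, had a value in all 14 samples, had a mean of those values under 10% and had no other window of the table, complete or not, starting within 5000 bp. This left 3774 windows of the 194367 in the table, which is 10.5% of the 35873 low windows on these chromosomes. A further 596 isolated windows were under 10% by the mean of the values present, but lacked a value in at least 1 sample and were not included. The windows were chosen by measured values, namely the mean over both lines together, and by position, so the low level and the isolation are the definition of the set, and no test was made of them.

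The assay was RRBS, reduced representation bisulfite sequencing, which cuts DNA with MspI at CCGG sites, keeps short fragments and reads unmethylated cytosines as thymine after bisulfite treatment. The samples were soleus from the left leg, a muscle with a postural role and many slow fibres, from female rats of 23 to 24 months in generation 44 of 2 lines bred from N:NIH stock for high (HCR, 6 samples) or low (LCR, 8 samples) running capacity. Both lines were kept on standard chow and sampled at baseline, and the question was whether methylation in old muscle differs with inherited aerobic capacity. The labels do not state that each sample came from a separate rat, so the p-values describe the spread between these samples, which may be technical. There is 1 line for each direction of breeding, so running capacity and other inherited differences between the lines cannot be told apart. In whole muscle a low level in every cell and a high level in few cells cannot be told apart either. No RNA was measured, and the tissue label was not checked against marker genes. Read depth behind the percentages was unknown, so every error below is a spread between samples.

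Most CpG sites of a mammalian genome are methylated by DNA methyltransferases, and the exceptions are mainly CpG islands, short CpG-rich stretches that often hold a gene's promoter and that stay unmethylated in most tissues. Islands are often surrounded by shores whose methylation varies more than that of the island itself. RRBS reads islands in several adjoining windows where CCGG sites are dense, and a single window can stand alone where few such fragments lie around it. Whether that holds for the isolated low windows was not tested, and the coverage that a window needed is not stated. Which of these windows lie in islands, promoters or genes was not analysed here, since no sequence or annotation of rn7 was used, and windows are named by position.

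The isolated low windows were spread through the whole level range that the rule allows, and many were nearly free of methylation. Their median level was 2.75%, with quartiles of 1.17% and 6.20% and a lowest mean of 0.309%. A mean under 1% was found in 584 windows (15.5%), 1 to 2% in 1020 (27.0%), 2 to 5% in 934 (24.7%) and 5 to 10% in 1236 (32.8%). For comparison, the 32099 low windows with another window within 5000 bp had a median of 1.79%, and 21.5% of them stood at 5 to 10%. Unconverted cytosines also read as methylated, and mitochondrial DNA is often used as a reference with little methylation. Its 10 complete windows had a mean of 0.610% ± 0.169 (SD over 6 samples) in HCR against 0.631% ± 0.346 (SD over 8 samples) in LCR, so windows under 1% were close to that level.

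The extremes of the set show this range. The window at chr5:2611001-2612000 had the lowest mean, and it was listed at 0 in 4 of 6 HCR samples and 7 of 8 LCR samples. Its highest values were 0.333% in HCR replicate 2 and 3.81% in LCR replicate 7, so its mean rests mostly on 1 sample. At chr6:129605001-129606000 the mean was 0.316%, with HCR samples from 0 to 0.723% and LCR samples from 0 to 0.830%. The third lowest, at chr10:79269001-79270000 with a mean of 0.355%, was above 0 in HCR replicate 1 (3.75%) and LCR replicate 4 (1.22%) alone. At the upper end, chr16:21009001-21010000, chr2:101610001-101611000 and chr19:51832001-51833000 had means of 9.9998%, 9.998% and 9.99%. Just outside the threshold, chr16:56317001-56318000, chr2:39150001-39151000 and chr5:114302001-114303000 had means of 10.01% each. The level threshold therefore cuts through a continuous range of levels, and the distance threshold does the same: 587 members had their nearest window at 6000 bp, and 712 low windows had it at exactly 5000 bp.

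Low windows became rarer as windows stood farther apart. Of the complete autosomal windows with a direct neighbour at 1000 bp, 40.6% were low. The share was 14.6% at a nearest distance of 2000 bp, 13.8% at 6000 bp, 12.9% at 11000 to 20000 bp, 10.1% at 21000 to 50000 bp and 5.06% (72 of 1422 windows) beyond 50000 bp. Over all isolated windows 12.4% were low, against 31.6% of those that were not isolated. Among the low windows themselves the median level was 1.62% at 1000 bp and 4.07% at 2000 bp, and then 3.18% at 6000 bp, 2.94% at 7000 to 10000 bp, 2.43% at 11000 to 20000 bp and 2.58% at 21000 to 50000 bp. Windows are not independent of their neighbours, and these shares are a description.

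The nearest window of an isolated low window lay at a median distance of 10000 bp, with quartiles of 7000 and 16000 bp. The farthest stood at chr3:96773001-96774000, where the nearest windows were 125000 bp away on 1 side and 220000 bp on the other. Its level was 2.05% to 3.68% in the LCR samples (median 3.30%) and 2.11% to 6.12% in the HCR samples (median 2.92%), the highest being HCR replicate 4. The window at chr2:14715001-14716000, 124000 bp from the next, had 0.455% to 1.39% in LCR and 0.873% to 1.16% in HCR, and the one at chr13:21807001-21808000, 104000 bp from the next, had 0.194% to 0.798% and 0.429% to 1.05%. All 3 were low in each of the 14 samples, and the lines overlapped in each of them. Isolated low windows were also far from each other, at a median of 149000 bp, and 299 of them (7.92%) had another within 20000 bp.

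The windows nearest to an isolated low window were at about the median of the autosomes, but below those nearest to other isolated windows. Windows within 50 kb were somewhat lower on average than the autosomes. The nearest windows on either side had a median level of 43.6%, with quartiles of 16.4% and 62.5%, and the median over all 188511 autosomal windows was 42.3%. Of the 3773 members with a window on both sides, 1571 (41.6%) had 30% or more on both and 163 (4.32%) had under 10% on both. Low windows with a close neighbour had both nearest windows under 10% in 22.2% and at 30% or more in 8.61%, but their neighbours lie closer by definition. Isolated windows that were not low had both nearest windows at 30% or more in 53.8%. The median level of those nearest windows was 49.1%, with quartiles of 26.8% and 64.6%. Members in high and in low surroundings had similar levels: the median was 2.76% where both nearest windows were under 10%, and 2.56% in the 665 members where both were at 50% or more.

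The mean varied little with distance, and stayed below the autosomal mean of 39.4%. At over 5 to 10 kb from an isolated low window the mean level was 36.6%, and at over 45 to 50 kb it was 35.2%. Between 24.5% and 27.9% of the windows in these distance bins were under 10%, against 20.7% of all autosomal windows. Around low windows with a close neighbour the mean was 20.3% within 5 kb, 32.4% at over 5 to 10 kb and 34.7% at over 45 to 50 kb. Around isolated windows at 10% or more it was 40.6% and 39.6% at the same 2 distances. The plot of surrounding levels shows that beyond 10 kb both kinds of low window lay in surroundings of similar level, below those of the isolated windows that were not low.

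**Figure D1:**
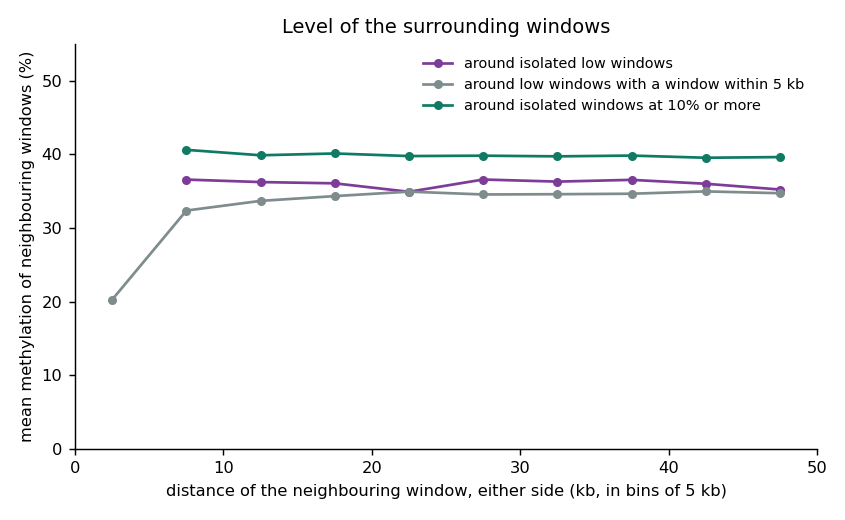
Mean methylation (%) of neighbouring windows against their distance (kb, bins of 5 kb, both sides together) from isolated low windows, from low windows with another window within 5 kb, and from isolated windows at 10% or more. The first and the last curve have no point under 5 kb by definition, and the curve of the isolated low windows runs between 34.9% and 36.6%.

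Isolated low windows were found on every autosome, from 68 on chromosome 20 to 461 on chromosome 1. As a share of each chromosome's low windows they ranged from 5.90% on chromosome 20 and 6.31% on chromosome 12 to 14.4% on chromosome 11 and 15% on chromosome 2. Chromosome 2 had the fewest windows of any kind per Mb in the table (51.1), and chromosomes 12 and 20 had 171 and 122. As a share of isolated windows the range was 9.18% on chromosome 15 to 17.5% on chromosome 10.

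The mean level over the set lay between 3.09% and 4.56% in all 14 samples, and the 3 highest were HCR samples. In HCR the mean over the 3774 windows was 4.18%, 4.22%, 3.44%, 4.56%, 4.12% and 3.91% in replicates 1 to 6. In LCR it was 4.15%, 3.72%, 3.63%, 3.59%, 3.47%, 3.36%, 3.09% and 3.60% in replicates 1 to 8. The lines overlapped, with 3 HCR samples above the highest LCR sample and just 2 LCR samples below the lowest HCR sample, replicate 3. Averaged by line this was 4.07% ± 0.374 (SD over 6 samples) for HCR against 3.58% ± 0.304 (SD over 8 samples) for LCR, which are 0.494 points (SE 0.187) apart, at a ratio of 1.14. This average over windows chosen with results known was not tested. The low windows with a close neighbour had 3.21% ± 0.162 and 2.86% ± 0.134, 0.346 points apart at a ratio of 1.12, and all complete windows had 35.96% ± 0.980 and 34.8% ± 1.04, a difference of 1.12 points and a ratio of 1.03. Subtracting each library's mean over all complete windows gave -0.625 points. That value is fixed by the subtraction, which takes the same amount from windows at every level, and says nothing of direction in windows at these low levels.

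Missing values did not follow these means in every sample. HCR replicate 3 and LCR replicate 7, the samples with the lowest mean in their line, also lacked a value in the most windows of the table within their line, 17161 and 23521, against 4806 to 12895 in the other HCR samples and 2705 to 13653 in the other LCR samples. LCR replicate 2 and HCR replicate 1 came next within their line, with 13653 and 12895, and had means of 3.72% and 4.18%. By line the numbers were 10130 ± 4427 (SD over 6 samples) for HCR against 9908 ± 7162 (SD over 8 samples) for LCR. With the number of missing windows as a covariate in the limma fit described below, the members' median log2 logit difference stayed at 0.10. The numbers were alike between the lines, so the covariate could move that difference little, and no conclusion is drawn from it. In that fit 14 members were called, against 13 without it, and 904 of all windows tested, against 773. Leaving out each sample in turn gave differences of 0.395 points (without HCR replicate 4) to 0.620 points (without HCR replicate 3). On the mitochondrial windows HCR minus LCR was -0.0205 points, within the spread between samples.

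**Figure D2:**
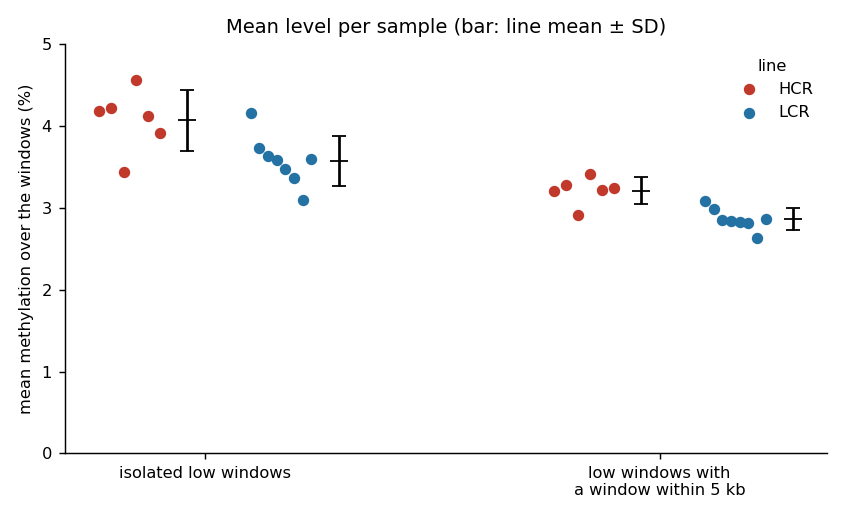
Mean methylation (%) of each sample over the 3774 isolated low windows and over the 32099 low windows with another window within 5 kb. Points are samples, and black bars show the line mean ± SD (6 HCR, 8 LCR); the isolated windows were higher in each of the 14 samples, and the lines overlapped in both sets.

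In each of the 14 samples the isolated low windows had a higher mean than the other low windows, by 0.468 to 1.15 points. The size of this gap was largest in HCR replicate 4 (1.15 points) and LCR replicate 1 (1.07 points) and smallest in LCR replicate 7 (0.468 points) and HCR replicate 3 (0.526 points). Its mean was 0.862 ± 0.227 points (SD over 6 samples) in HCR against 0.715 ± 0.180 points (SD over 8 samples) in LCR. Of the other low windows, 27042 had a neighbour at 1000 bp and a mean level of 2.77%. Those with the nearest window at 2000 bp and at 3000 to 5000 bp had 4.51% and 4.18%, above the 3.79% of the isolated windows, so the gap was to windows with a direct neighbour.

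Low methylation was shared by the samples in most of these windows. In 1715 windows (45.4%) every sample was under 5%, and in 2444 (64.8%) every sample was under 10%. The range between the lowest and the highest sample had a median of 5.03 points, with quartiles of 1.61 and 10.96. At least 1 sample reached 20% in 204 windows (5.41%), and at least 1 reached 30% in 25. In 163 of the 204 it was a single sample, and in 5 it was 3 or more. Values of exactly 0 made up 4.58% of all values, and 943 windows (25%) held at least 1.

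The spread between samples rose with the level, and from 2% up it was wider in isolated windows than in windows with a direct neighbour. At 2 to 5% the SD within lines had a median of 1.90 points (quartiles 1.203 and 2.68) in isolated windows and 1.27 points (quartiles 0.772 and 2.06) in low windows with a close neighbour. At 5 to 10% the medians were 3.69 and 3.02 points. Below 2% they were alike, with 0.318 and 0.338 points under 1% and 0.475 and 0.446 points at 1 to 2%. Low windows with the nearest window at 2000 to 5000 bp were close to the isolated ones, with medians of 1.80 points at 2 to 5% and 3.52 points at 5 to 10%, and those with a neighbour at 1000 bp had 1.18 and 2.83 points. In the class of 2 to 5% the share of values at 0 moved with the spread, at 6.61% in isolated windows and 3.81% in the others, and its part in the wider spread was not tested. In 5 to 10% windows at least 1 sample reached 20% in 16.1% of the isolated and 11.8% of the other windows. The line with the larger SD was HCR in 2058 of the 3774 isolated windows (54.5%).

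**Figure D3:**
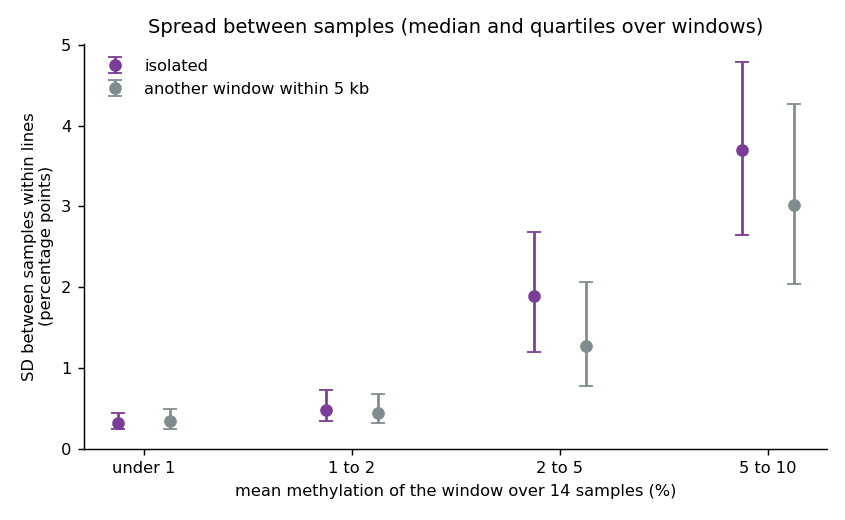
SD between samples within lines (percentage points; points are medians over windows, bars are quartiles) by class of mean level (%), for isolated low windows and for low windows with another window within 5 kb. The medians are close under 2% and stand at 1.90 against 1.27 points in the class of 2 to 5%.

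High values in otherwise low windows came more often from HCR samples. A value of 20% or more was found in 7 to 48 windows per HCR sample, with a mean of 26.7 ± 13.3 (SD over 6 samples), and in 2 to 24 windows per LCR sample, with a mean of 11.3 ± 6.88 (SD over 8 samples). HCR replicate 4 held 48 of them and was the highest of all samples in 524 windows (13.9%), while LCR replicate 4 was the highest in 103 (2.73%). These counts went in part with a library's mean over all complete windows. That mean was 37.1% in HCR replicate 4 and 36.5% in LCR replicate 1 (24 windows at 20% or more). It was 34.2% in HCR replicate 3 (7 windows) and 33.7% in LCR replicate 6 (2 windows). Its part in the line difference was not tested. Just 13 windows had 1 sample at 20% or more and the other samples all under 10%. That sample was HCR replicate 1 in 5 of them and HCR replicate 4 in 4.

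The 5 windows with the widest range had different samples at the top. At chr4:25245001-25246000 HCR replicate 3 was at 43.5%, and the other HCR samples were between 2.03% and 10.5% and the LCR samples between 0 and 10.4%. At chr10:46332001-46333000 LCR replicate 2 was at 40.5% and the other samples were between 1.43% and 13.4%. At chr17:60444001-60445000 HCR replicate 1 was at 40.0%, with the other samples between 1.71% and 12.0%. In these 3 windows a single sample stood apart. At chr9:74850001-74851000 HCR replicates 4 and 6 were at 37.3% and 24.8%, and the LCR samples were at 0 to 11.4%. At chr6:80116001-80117000 LCR replicates 4 and 3 had 35.7% and 32.6%, HCR replicates 3 and 6 had 22.8% and 15.1%, and the other samples were between 0 and 4.41%, so high and low samples occurred in both lines. The line difference did not pass the test in any of the 5 (limma adjusted p from 0.692 to 0.979).

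The lines were compared window by window with limma, a linear model with moderated variances, on the log2 logit scale over all 135802 complete windows, and a window was called at a Benjamini-Hochberg adjusted p under 0.05. Of the isolated low windows 13 were called (0.344%), 7 higher and 6 lower in HCR, and the share over all windows tested was 0.569%, with 0.405% higher and 0.164% lower. An unadjusted p under 0.05 was reached by 385 members (10.2%), 316 higher and 69 lower in HCR, against 10.9% of all windows tested (8.6% higher and 2.32% lower). The HCR mean was the higher one in 2458 members (65.1%) and in 64.6% of all complete windows. The share of members called was below that over all windows, and the share at an unadjusted p under 0.05 was close to it. A low share called was no trait of the isolated low windows. Limma called 0.234% of the low windows with a close neighbour and 0.753% of the isolated windows at 10% or more. The median log2 logit difference was 0.10 in the members and 0.08 in all windows tested, and with each library centred it was -0.0021 and -0.02. After that shift 2 members were called higher and 7 lower in HCR, and after quantile normalization 3 and 7. Over all windows tested 668 and 675 were called in these fits, against 773 in the main fit. Their split by direction was not counted, so whether other windows share this turn in direction cannot be told.

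Most calls lay in the upper part of the level range, though less so without moderated variances. Of the 13 called windows 11 had a mean of 5 to 10% (0.890% of the members at that level) and 2 had one of 2 to 5% (0.214%). At the same levels limma called 0.436% and 0.375% of the low windows with a close neighbour. Among the 584 members under 1% and the 1020 at 1 to 2% limma called 0, with 27 (4.62%) and 85 (8.33%) at an unadjusted p under 0.05, and the fit without moderated variances also called 0. Of the low windows with a close neighbour limma called 0.0806% under 1% and 0.0908% at 1 to 2%. At such shares few calls or none fall in this many members. The fit without moderated variances called 3 members at 2 to 5% and 5 at 5 to 10%. The nearest other window of a called member was 6000 to 20000 bp away. In the 632 members with no other window within 20000 bp limma called 0, with 71 at an unadjusted p under 0.05, and the fit without moderation called 0. Over all members the share called was 0.344%, so a count of 0 in 632 windows does not show that calls are lost with distance. Differences between line means ranged from -12.7 to 17.4 points, and 110 members differed by 5 points or more.

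**Figure D4:**
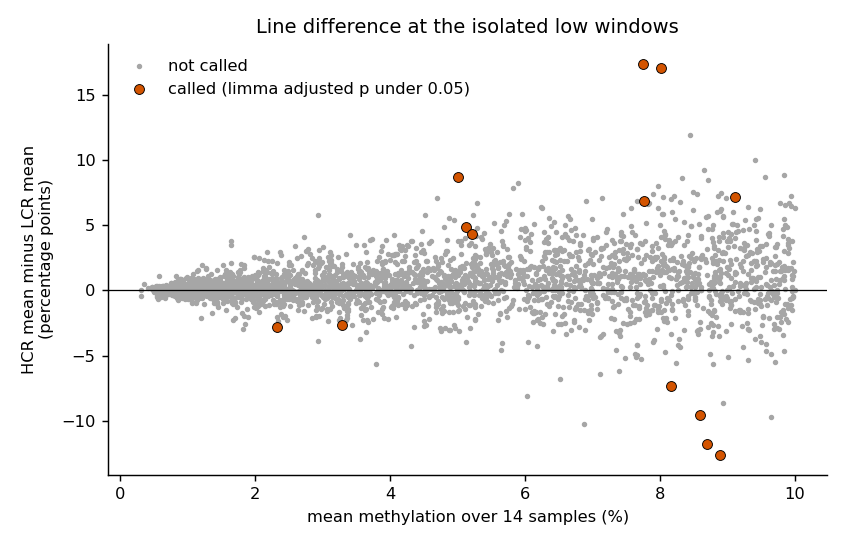
HCR mean minus LCR mean (percentage points) against the mean level over 14 samples (%) for the 3774 isolated low windows, with the 13 called windows in orange. The differences widen with the level, and the called windows lie on both sides of 0 from -12.7 to 17.4 points.

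The largest called difference was at chr6:123179001-123180000, a window listed at 0 in 7 of 8 LCR samples. In LCR the lowest value was 0, the median 0 and the highest 2.14% (replicate 2), and in HCR the lowest was 3.95% (replicate 5), the median 18.5% and the highest 29.3% (replicate 2). The lines did not overlap. The means were 17.7% ± 8.39 (SD over 6 samples) for HCR against 0.267% ± 0.755 (SD over 8 samples) for LCR, with limma giving 4.11 on the log2 logit scale (SE 0.40, adjusted p = 0.000153). The call was kept in each of the 26 other fits (adjusted p up to 0.0164). The nearest windows, at 57000 and 20000 bp, had mean levels of 67.4% and 56.5%.

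A second window without methylation in most LCR samples was at chr14:75130001-75131000. It was listed at 0 in 5 of 8 LCR samples, with a highest value of 5.44%, and in HCR it ran from 5.22% over a median of 10.7% to 13.7%. HCR replicate 1 was the only HCR sample below the highest LCR sample. The means were 10.02% ± 3.14 (SD over 6 samples) for HCR against 1.26% ± 2.00 (SD over 8 samples) for LCR (2.77 on the log2 logit scale, SE 0.45, limma adjusted p = 0.0098), and this call too was kept in each of the 26 other fits (adjusted p up to 0.0460). The window 8000 bp downstream was low in both lines, at 1.53% in HCR and 1.62% in LCR, and the one 8000 bp upstream had 32.6% and 23.4%.

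At chr7:79850001-79851000 LCR was again close to 0, and HCR was split. LCR samples were at 0 to 2.46% with a median of 0, and HCR samples had 0 in replicate 1, 11.4% and 11.9% in replicates 4 and 6, 19.3% in replicate 2 and 31.1% and 33.1% in replicates 3 and 5. The means were 17.8% ± 12.7 (SD over 6 samples) for HCR against 0.683% ± 1.01 (SD over 8 samples) for LCR (limma adjusted p = 0.0470). The call was lost in 23 of the 26 other fits. Among them were 13 of the 14 fits that left out a sample, all but the one without HCR replicate 1 (limma adjusted p from 0.0517 to 0.110 where lost). The limma adjusted p was 0.0609 after centring and 0.0690 on untransformed levels, and without moderated variances it was 0.109.

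The other calls higher in HCR were smaller, with both lines methylated. At chr9:103399001-103400000 HCR had 10.6% to 18.9% (median 12.7%) and LCR 3.85% to 12.0% (median 4.98%), and the samples at the top of each line were HCR replicate 4 and LCR replicate 1. Its limma adjusted p was 0.0499, and the call was lost without any one sample other than LCR replicate 1 (limma adjusted p from 0.0592 to 0.110). In all it was lost in 19 of the 26 other fits. At chr18:55283001-55284000 HCR had 7.31% to 16.4% (median 11.8%) and LCR 3.19% to 6.38% (median 5.04%), and the lines did not overlap (limma adjusted p = 0.0274). This call was lost without HCR replicate 1, 2 or 6 or LCR replicate 1, 2 or 3 (limma adjusted p from 0.0503 to 0.0712). In all it was lost in 10 of the 26 other fits.

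Separated lines were also seen at chr2:175929001-175930000 and chr3:58349001-58350000, again higher in HCR. The former had 6.41% to 9.19% in HCR (median 7.99%) and 1.05% to 6.20% in LCR (median 2.97%), with LCR replicate 6 as the highest LCR sample (difference 4.92 points, limma adjusted p = 0.0312). The latter had 5.40% to 10.2% in HCR (median 7.59%) and 1.75% to 4.44% in LCR (median 3.77%; difference 4.33 points, limma adjusted p = 0.0348). The chromosome 2 call was lost without HCR replicate 1, 2, 3, 4 or 6 or LCR replicate 1, 3 or 7 (limma adjusted p from 0.0513 to 0.0752). The chromosome 3 call was lost without any one HCR sample other than replicate 2 and without LCR replicate 3, 4, 5, 7 or 8 (limma adjusted p from 0.0521 to 0.0832). Both calls were lost in 14 of the 26 other fits. After centring neither passed the threshold (limma adjusted p = 0.0578 and 0.0617), nor did the chromosome 9 and 18 windows (0.0551 and 0.0675). Of the 13 calls 8 were kept after centring, among them all 6 lower in HCR. Centring lowers the log2 logit difference of every window by the same amount.

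Among the 6 calls lower in HCR, the window at chr20:42335001-42336000 had the largest difference. HCR samples were at 0 in replicates 2, 4, 5 and 6 and at 4.44% and 5.44% in replicates 1 and 3, and LCR samples ran from 7.50% over a median of 11.8% to 29.6% (replicate 5). The lines did not overlap. The means were 1.65% ± 2.57 (SD over 6 samples) for HCR against 14.3% ± 7.89 (SD over 8 samples) for LCR, with limma giving -3.13 on the log2 logit scale (SE 0.53, adjusted p = 0.0134). The call was kept in the 14 fits that left out a sample. It was lost in 2 of the 26 other fits, among them the one on untransformed levels (limma adjusted p = 0.0785). The nearest windows, at 6000 and 8000 bp, were methylated at 64.6% and 46.8%.

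A similar picture held at chr2:94171001-94172000 and chr13:39188001-39189000, where replicate 4 was the highest HCR sample. The former had 0 in HCR replicates 2, 3 and 6 and 8.16% in replicate 4, with a median of 0.637%, and 4.81% to 20.8% in LCR (median 14.5%). Its means were 1.94% ± 3.18 (SD over 6 samples) and 13.8% ± 6.21 (SD over 8 samples; limma adjusted p = 0.0172). The call was kept in the 14 fits that left out a sample. It was lost in 2 of the 26 other fits, among them the one without moderated variances (adjusted p = 0.0518). The latter had 0 to 9.15% in HCR (median 2.61%) and 7.43% to 18.7% in LCR (median 12.4%), a difference of -9.60 points (limma adjusted p = 0.0421). In both windows HCR replicate 4 lay within the LCR range, and on chromosome 13 the call was lost without any one sample other than HCR replicate 4 (limma adjusted p from 0.0515 to 0.0860). The chromosome 13 call was lost in 18 of the 26 other fits.

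At chr8:104155001-104156000 both lines were methylated, with 1.84% to 6.56% in HCR (median 3.97%) and 5.64% to 14.5% in LCR (median 12.7%), and the samples overlapped (difference -7.33 points, limma adjusted p = 0.0330). This call was lost without HCR replicate 2, 3 or 5 or LCR replicate 1, 2, 3, 4, 7 or 8 (limma adjusted p from 0.0577 to 0.0829). In all it was lost in 12 of the 26 other fits. The remaining calls were small differences between tightly grouped samples. At chr2:175992001-175993000 HCR samples had 0.441% to 1.31% (median 0.695%) and LCR samples 2.18% to 5.15% (median 3.56%). The lines did not overlap, and the means of 0.733% ± 0.309 (SD over 6 samples) and 3.52% ± 1.08 (SD over 8 samples) differed by -2.79 points (-1.41 on the log2 logit scale, SE 0.18, limma adjusted p = 0.00135). At chr5:145879001-145880000 HCR had 1.18% to 3.31% (median 1.52%) and LCR 3.03% to 5.65% (median 4.62%), and HCR replicate 3 overlapped with LCR (difference -2.62 points, limma adjusted p = 0.0175). Its limma adjusted p was 0.0521 without HCR replicate 2.

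**Figure D5:**
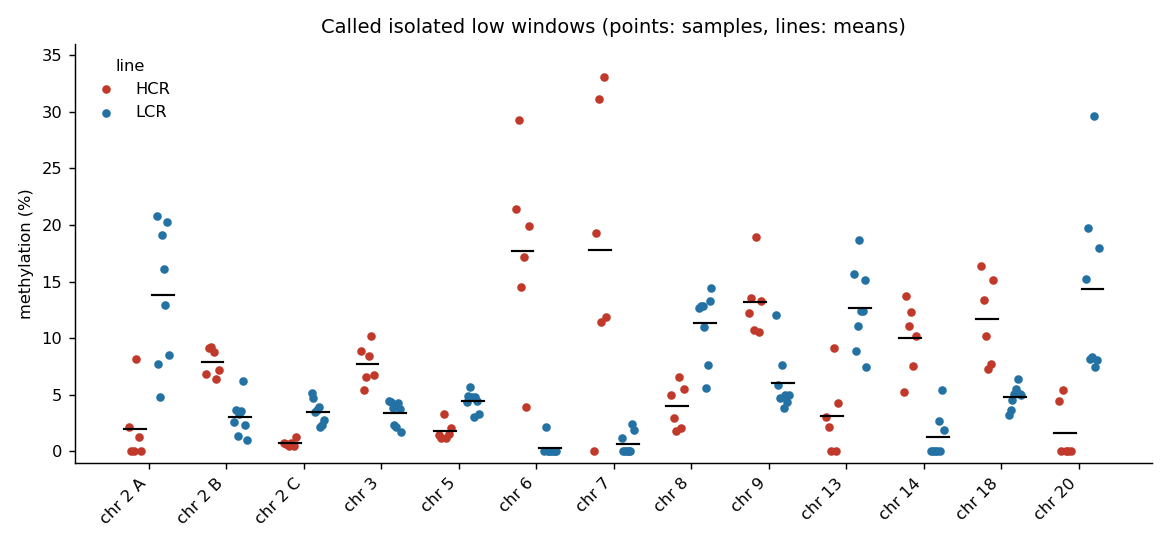
Methylation (%) of each sample in the 13 called isolated low windows, by line, with the line means as black lines. Windows are labelled by chromosome, and on chromosome 2 the letters A to C follow the order along the chromosome; on chromosomes 6, 7 and 14 most LCR samples are at or near 0, and on chromosome 20 the same holds for 4 of 6 HCR samples.

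The pair on chromosome 2 lay 63000 bp apart and went in opposite directions. The window at chr2:175929001-175930000 was higher in HCR by 4.92 points and the one at chr2:175992001-175993000 lower, at -2.79 points. They were each other's nearest called window. The latter had low windows at 18000 and 6000 bp on its sides, with 0.924% and 1.06% in HCR and 0.881% and 1.02% in LCR. The nearest other call of the remaining members lay 171000 to 4953000 bp away and was never an isolated low window.

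No window next to a called member passed the test. Of the 26 nearest windows on either side, 20 had values in all samples and were tested, and limma called 0 of them (smallest adjusted p = 0.216), with 1 at an unadjusted p under 0.05; the fit without moderation also called 0. These windows were 6000 bp or more away, and the largest difference between line means was 21.3 points, in the window 57000 bp from the chromosome 6 member, which had values in 13 samples and was not tested. In 18 of the 26 windows the line difference had the same direction as in the called member, and this share was not tested. A p above the threshold does not show that the levels were equal.

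The 5 windows with the next smallest p came close to the threshold, and 4 of them were higher in HCR. At chr14:36049001-36050000 HCR had 2.89% to 4.85% (median 3.98%) and LCR 1.66% to 2.47% (median 2.23%), and at chr15:20212001-20213000 HCR had 5.87% to 13.05% (median 9.62%) and LCR 2.01% to 5.50% (median 4.197%). The lines did not overlap in either (limma adjusted p = 0.0533 and 0.0593). They did not overlap at chr14:17638001-17639000 either, with 5.76% to 14.2% in HCR (median 9.18%) and 0 to 5.18% in LCR (median 1.71%; limma adjusted p = 0.0753). At chr8:74838001-74839000 HCR had a median of 7.75% against 3.70% for LCR (limma adjusted p = 0.0672). The window at chr6:138672001-138673000 was lower in HCR, with 0.986% to 2.62% (median 1.66%) against 2.07% to 8.12% in LCR (median 5.23%; limma adjusted p = 0.0794). It passed without LCR replicate 7 (limma adjusted p = 0.0338), the first of these 5 without HCR replicate 3 (0.0434), and the chromosome 8 window without HCR replicate 1 (0.0451).

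Complete separation of the lines was found in 14 isolated low windows (0.371%), 11 higher and 3 lower in HCR, and in 0.71% of all windows tested (0.558% higher and 0.152% lower). Low windows with a close neighbour had a like share, 0.364%. With each library's mean level subtracted, 7 members were separated, of which 1 was higher in HCR, and this too follows in part from taking the same amount at every level. Leaving out a sample can only keep or raise the count of 14, and it was then 15 (without LCR replicate 4) to 28 (without HCR replicate 3). The share over all windows was not computed for these. The count of 13 called members fell to 6 without HCR replicate 2 or LCR replicate 3, to 7 without HCR replicate 6 and to 8 without LCR replicate 4 or 8. Over all windows tested the count fell as well, from 773 to 495 and 600, to 539, and to 642 and 591. The calls at chr6:123179001-123180000, chr14:75130001-75131000, chr20:42335001-42336000, chr2:94171001-94172000 and chr2:175992001-175993000 were those kept in each of the 14 fits that left out a sample.

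By level class, the line difference over the isolated low windows grew with the level but kept a similar ratio. Under 1% the HCR mean was 0.879% ± 0.0408 (SD over 6 samples) against 0.802% ± 0.0759 (SD over 8 samples) for LCR, a ratio of 1.10. At 1 to 2% the averages were 1.41% ± 0.0727 and 1.29% ± 0.120, a ratio of 1.09. At 2 to 5% they were 3.63% ± 0.276 and 3.20% ± 0.262, and at 5 to 10% 8.11% ± 0.905 and 7.06% ± 0.803, with ratios of 1.13 and 1.15. The lines overlapped in each class. By chromosome HCR was higher on all 20 in the deposited levels, by 0.141 points on chromosome 12 to 0.860 points on chromosome 20, but the chromosomes come from the same libraries and share the difference in overall level.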

How the data were processed

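Per the submitters' processing notes, the tools were FastQC, Trim Galore 0.6.10, Bismark and Bowtie2, and the build was rn7. The table deposited by the authors gives percent methylation per window of 1000 bp and library, without read counts. How windows were formed, which coverage they needed and why some values are missing is not stated in the labels, and depth limits precision to an unknown degree. Columns were matched to samples by library name and groups taken from titles; 0 sample columns were left unused.

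As fractions x, levels entered limma 3.58.1 (R 4.3.3) as log2((x + 0.01)/(1 - x + 0.01)), with a single factor for line, a trended variance, all 14 samples and 2-sided p-values adjusted over 135802 windows; the offset shrinks differences near 0. Other steps used Python 3.11.15, numpy 2.4.6 and pandas 2.3.3. Members, lists and tests were chosen with earlier results of these data known. The windows named are the called members, the 5 with the next smallest p, the 5 with the widest range, the 3 highest and 3 lowest means, the 3 most isolated, and 3 just above the threshold. Genes at the windows were not analysed here, so the planned gene lists were not used. Replicate numbers 1 to 6 occur in both lines, but no label says what a shared number means. Alternatives covered the offset, the variance model, the windows fitted, the scaling, a block for replicate number, leaving out each sample, and both thresholds of the rule.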

Additional observations from a re-analysis of the deposited data

Results flagged for a closer look

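Each line's values at the 35 named windows and its means over the isolated low windows were searched for a sample far from the rest, in 72 sets, and 14 held one, where chance gives about 1 in 20. Windows chosen for a wide range or for values at 0 favour such samples, so the number is no trait of the set.

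In windows called between the lines, HCR replicate 4 stood apart at chr2:94171001-94172000 (8.16%, the other HCR samples up to 2.20%) and at chr9:103399001-103400000 (18.9%, the others up to 13.6%). In the latter LCR replicate 1 was apart as well (12.0%, the others up to 7.62%). HCR replicate 6 had 1.31% at chr2:175992001-175993000 (the others up to 0.754%), and LCR replicate 2 had 2.14% at chr6:123179001-123180000, where the other LCR samples were at 0.

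Single high samples were also HCR replicate 3 at chr4:25245001-25246000 (43.5%), HCR replicate 1 at chr17:60444001-60445000 (40.0%) and LCR replicate 2 at chr10:46332001-46333000 (40.5%), where the other samples of their line reached 10.5%, 12.0% and 12.3%. In windows otherwise at 0 within the line, HCR replicate 1 had 3.75% and LCR replicate 4 had 1.22% at chr10:79269001-79270000, and LCR replicate 7 had 3.81% at chr5:2611001-2612000. At chr3:96773001-96774000 HCR replicate 4 had 6.12% (the others up to 3.54%), and at chr16:21009001-21010000 LCR replicate 1 had 18.3% (the others up to 11.4%). At chr2:39150001-39151000, just outside the threshold, HCR replicate 1 had 21.5% (the others up to 11.1%).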

How the results depend on the processing

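The fit of the 12 samples numbered 1 to 6 without the block was added after seeing the data. The number of called members was 13, and 9 to 19 with other offsets, without transformation or trend, with other window sets, centred, quantile-normalized or with missing windows as covariate. Over all windows of each fit 773 were called in the main fit and 668 to 1006 in those. Members called numbered 8 without moderation, 6 with the 12 samples numbered 1 to 6, and 3 with the replicate block on those 12. Over all windows the same 3 fits called 635, 444 and 71. Leaving out each sample gave 6 to 13 called members and 495 to 669 called windows in all. Deviations of same-numbered samples in the members correlated at -0.0693 to 0.0389, and those of other pairs at -0.1021 to 0.0743. Just 1 of 6 HCR samples correlated best with its own number. Whether same-numbered samples have anything in common cannot be told from this, as no label says. Requiring no window within 2000, 10000 or 20000 bp gave 6849, 1807 and 632 windows with 23, 2 and 0 calls (0 also without moderation, 71 at an unadjusted p under 0.05). The share called was 0.344% over all members and 0.569% over all windows tested, so few calls fall in so few windows. A mean under 5% gave 2538 windows and 2 calls, and one under 20% gave 6186 and 29. The line difference over the members was 0.983 points with the threshold at 20%, -0.625 points after centring, which subtracts the same amount at every level and so fixes the sign, and 0.395 to 0.620 points without each sample. Separated members numbered 7 after centring and 15 to 28 without each sample, where the count cannot fall. Of the 13 called windows 2 kept their call in all 26 other fits and 5 in all 14 that left out a sample. Depth is unknown, so what it limits at low levels could not be computed.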

Other observations

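The X chromosome, which the rule leaves out, held few such windows. Of the 1638 complete isolated windows on X 57 (3.48%) had a mean under 10%, against 12.4% on the autosomes, and their median level was 7.35%. Levels of 20 to 50% were found in 28.4% of the isolated windows on X and 32.6% of those on the autosomes. The HCR mean there was 6.39% ± 1.17 (SD over 6 samples) against 6.76% ± 1.16 (SD over 8 samples) for LCR, a gap within the spread between samples. Limma called 0 of these 57, with 3 at an unadjusted p under 0.05, and the fit without moderation called 0.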
